A study of Brassica juncea with 18 samples.

Results

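Siliques, the seed pods, of Indian mustard (Brassica juncea var. Varuna) at 20 days after pollination (DAP) were followed through 6 h and 12 h of cold at 4 °C. They gave 3 of the 18 libraries of the series, a control, a 6 h cold and a 12 h cold library, taken by their labels, and were compared over all 13342 transcripts (9446 unigenes, the gene-level groups of a de novo assembly) of the deposited expression table. The other libraries hold the same 3 conditions at 5, 10, 15, 25 and 30 DAP. All plants were grown in the field and self-pollinated, and every branch, control or cold, was cut and stood in water. Cold branches were kept at 4 °C with light, and control branches stayed in water under field conditions. A library holds whole siliques, with pod wall, seed coat, endosperm and, at 20 DAP, a heart-shaped embryo. Fewer cells of a type and less RNA per cell cannot be told apart in such tissue. No source used here states at what hour each silique was picked, so time of day and cold cannot be told apart either.

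In chilled plants of the Brassica family, CBF (DREB1) factors bind promoters of cold-regulated (COR) genes, whose products include dehydrins and other protectants of membranes and proteins. The circadian clock gates this response: CCA1 and LHY peak in the morning, and pseudo-response regulators and GIGANTEA follow through the day. Around the heart stage a Brassica seed moves from endosperm growth towards embryo filling, and the pod wall begins to thicken. When oxygen runs short, plant cells turn to ethanol fermentation through pyruvate decarboxylase and alcohol dehydrogenase.

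Expression is given as FPKM, the number of sequenced fragments of a transcript scaled to its length and to the size of the library, and differences as log2(FPKM + 1) of one library minus another. A difference of 2 or more is called 4-fold here. With 1 library per condition, no difference within 20 DAP has a replicate check or a p-value. The test the design allows is limma's, which asks whether the 20 DAP change differs from the mean change of the other 5 stages and takes the spread from those stages. The table was restricted by the authors to transcripts differential between some pair of the 18 libraries, so shares over it are not shares of the transcriptome. Libraries that stand apart are those of 5 DAP 6 h, with 162 transcripts 4-fold above every other library, and 25 DAP 12 h, with 28. The 20 DAP libraries have 1 (control), 3 (6 h) and 0 (12 h) such transcripts. The embryo regulator LEC1-1 (c66162_g1_i1) was at 48.95 FPKM in the 20 DAP control, 29.01 at 6 h and 40.47 at 12 h, above the 3 libraries of 15 DAP (1.25 to 2.82) and below those of 25 DAP (55.18 to 102). Median ratio scaling factors of these libraries differed, on the log2 scale, by 0.11 for 6 h over control, 0.22 for 12 h over control and 0.10 for the step between them. Rescaling raised the differences of abundant transcripts by about these amounts, and those of transcripts near 0 in one library by other amounts or not at all (Col-2-like, c67830_g2_i1, went from 4.38 to 4.35 at 6 h). The changes below are on the deposited scale.

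After 6 h of cold, 312 transcripts (2.34% of those compared) were at least 4-fold higher than in the 20 DAP control and 156 (1.17%) at least 4-fold lower. After 12 h, 426 (3.19%) were higher and 276 (2.07%) lower. On the median ratio scale the counts were 329 and 109 at 6 h and 483 and 201 at 12 h. From 6 h to 12 h, 87 (0.652%) were higher and 275 (2.06%) lower. At the other 5 stages the 6 h count of higher transcripts lay between 364 and 874, above the 312 of 20 DAP. That order did not hold at 2-fold, where 20 DAP had 1417 higher transcripts, 15 DAP 1409 and 25 DAP 1220. The 12 h counts of 20 DAP lay within the range of the other stages (292 to 502 higher, 222 to 523 lower). Of the 312 transcripts higher at 6 h, 126 (40.4%) were also 4-fold higher at each of the other 5 stages and 99 (31.7%) at none of them. Of the 275 transcripts lower at 12 h than at 6 h, 195 (70.9%) were 4-fold lower at no other stage and 17 (6.18%) at each of the other 5. The comparisons with control share the 20 DAP control library, and their values are set side by side.

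**Figure D1:**
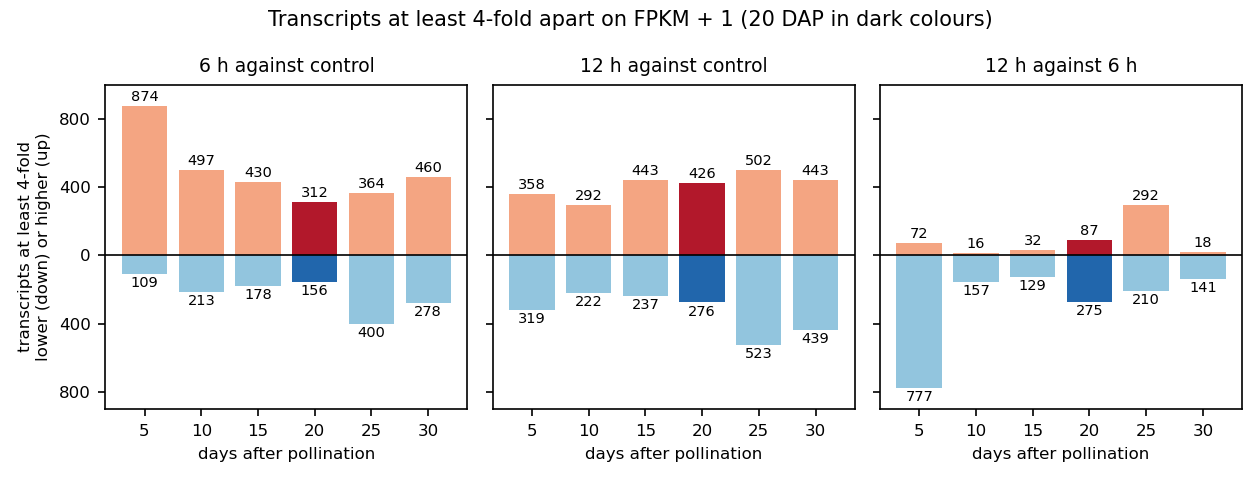
Number of transcripts at least 4-fold higher (bars up) or lower (bars down) on FPKM + 1 at each stage (x axis, days after pollination), in 3 panels for 6 h over control, 12 h over control and the step from 6 h to 12 h; each bar compares 1 library with 1 library. At 20 DAP (dark bars) the counts are 312 and 156 at 6 h, 426 and 276 at 12 h, and 87 and 275 from 6 h to 12 h.

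COR and dehydrin transcripts were higher in both cold libraries of 20 DAP. Few transcripts of late embryogenesis abundant proteins, another class of protectants, were 4-fold higher, although their summed level was higher too. Of 13 transcripts named as cold-regulated proteins, from 5 unigenes, 6 were 4-fold higher at 6 h and 8 at 12 h, with none lower. At the other stages 6 to 9 of them were higher at 6 h and 6 to 8 at 12 h. The median difference of the 13 at 20 DAP was 1.83 at 6 h and 2.54 at 12 h, against 0.00 and -0.04 over all transcripts. The median difference from 6 h to 12 h was 0.84, although the median level of the list, as log2(FPKM + 1), was 1.54 in control, 5.30 at 6 h and 3.65 at 12 h. Of 14 late embryogenesis abundant transcripts 1 was 4-fold higher at each time, with median differences of 0.04 and 0.01. At the other stages 1 to 3 were 4-fold higher at 6 h and 0 to 1 at 12 h. The summed level of the 14 at 20 DAP was 11.9 FPKM in control, 48.4 at 6 h and 133 at 12 h. The COR transcript c53443_g1_i1 was at 39.63 FPKM in control, 349.7 at 6 h and 1002 at 12 h. The COR transcript c69711_g17_i1 went from 24.06 to 135.2 and 720.1 FPKM, and BN28a (c64555_g3_i1), a small cold-induced protein first known from rapeseed, from 13.70 to 51.06 and 286.4. All 3 were thus highest at 12 h, with a step from 6 h to 12 h of 1.52, 2.40 and 2.47, each above the range of that step at the other 5 stages (at most 0.85, 1.15 and 1.69). None of these 3 steps passed limma's test against the other stages (adjusted p = 1 for each after Benjamini-Hochberg adjustment).

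Dehydrins, which shield proteins and membranes from water loss, were high in the same libraries. The 13 dehydrin and early-responsive-to-dehydration transcripts came from 7 unigenes. None of them was on the COR list, but both lists were drawn by words in the best hit and do not mark separate gene classes. Of the 13 transcripts, 9 were 4-fold higher at 6 h and 9 at 12 h (2.34% and 3.19% over all transcripts). At the other stages 4 to 9 were higher at 6 h and 3 to 9 at 12 h. The dehydrin c56112_g1_i1, named COR47 in the study's primer list, was at 95.31 FPKM in control, 636.1 at 6 h and 1590 at 12 h. ELIP (c71156_g1_i1), an early light-induced protein that binds free chlorophyll under light stress, was at 57.39, 271.8 and 470.7 FPKM. A putative beta-amylase (c70856_g2_i2), which frees maltose from starch, was at 24.21, 313.1 and 497.4 FPKM, and its 12 h value lay above the 12 h libraries of the other 5 stages (210.1 to 350.9). At those stages beta-amylase was lower at 12 h than at 6 h, by 0.11 to 1.09 on the log2 scale, and at 20 DAP it was higher by 0.67 (limma adjusted p = 0.943 for the difference). Calmodulin 5 (c67835_g3_i1), a calcium sensor, was at 4.62, 18.35 and 46.85 FPKM. Zeaxanthin epoxidase (c70627_g1_i3), which feeds abscisic acid synthesis, was at 18.06, 60.56 and 99.13 FPKM.

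CBF and DREB1 factors were low in all 3 libraries. Of 6 transcripts, 1 was 4-fold higher at 6 h and none at 12 h, and their median level, as log2(FPKM + 1), was 0.20 in control, 0.86 at 6 h and 1.17 at 12 h. The 1 transcript, DREB1B (c106397_g1_i1), was at 0.14 FPKM in control, 4.93 at 6 h and 1.75 at 12 h. DREB2-2 (c71883_g1_i1), of the related DREB2 class, was at 0.70, 24.22 and 8.74 FPKM, and cold regulated protein 27 (c64594_g1_i1), a night-time repressor of the clock in Arabidopsis, at 1.15, 38.52 and 11.59. Both were thus highest at 6 h, as at each of the other 5 stages. COR proteins at 6 h were among the lower values of the series: their summed level was 1620 FPKM at 20 DAP and 1300 at 25 DAP, against 2180 to 5120 at 6 h elsewhere.

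Morning and evening clock genes were both higher in cold at 20 DAP, at different hours. The 13 morning clock transcripts came from 4 unigenes. Of these transcripts, 6 were 4-fold higher at 6 h and 12 at 12 h (2.34% and 3.19% over all transcripts). At the other stages 8 to 12 were higher at 6 h, above the 6 of 20 DAP, and 6 to 12 at 12 h. At 12 h of 20 DAP, 4 were 4-fold higher than at 6 h, a step that no morning transcript made at another stage. CCA1 (c66891_g2_i1), a morning repressor, was at 0.16 FPKM in control, 4.01 at 6 h and 21.06 at 12 h. Its 6 h value was below the 6 h libraries of the other 5 stages (4.29 to 11.67), and its 12 h value was close to the highest of the other 12 h libraries (8.34 to 21.23). Its step from 6 h to 12 h, 2.14 against 0.15 to 1.17 elsewhere, did not pass limma's test (adjusted p = 0.729). Evening genes were highest at 6 h: of 18 transcripts, from 3 unigenes, 16 were 4-fold higher at 6 h and 4 at 12 h. At the other stages 13 to 17 of the 18 were higher at 6 h and 3 to 7 at 12 h. Isoforms of a unigene can share reads, so these counts are not counts of separate genes. Pseudo-response regulator 5b (c70128_g1_i13), a daytime repressor of CCA1, was at 2.38, 46.01 and 11.98 FPKM, and GIGANTEA (c71462_g2_i3), which controls clock protein turnover and flowering time, at 8.90, 51.36 and 32.83. At 20 DAP the summed morning level was 2.95, 43.0 and 124 FPKM, and the summed evening level 63.6, 511 and 228. Across stages the summed morning level at 6 h was lowest at 20 DAP (77.4 to 101 elsewhere).

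B-box and CONSTANS-like factors, which link light and day length to flowering, were also higher. Of 42 transcripts, from 28 unigenes, 15 were 4-fold higher at 6 h, and 20 were higher and 2 lower at 12 h. Over all transcripts 2.34% were higher at 6 h, and 3.19% were higher and 2.07% lower at 12 h. At the other stages 14 to 24 of the 42 were higher at 6 h and 7 to 23 at 12 h. Col-2-like (c67830_g2_i1) was at 0.50 FPKM in control, 30.23 at 6 h and 38.83 at 12 h. Among 22 Dof transcription factors 6 were higher at 6 h and 7 at 12 h, with none lower. At each other stage 7 were higher at 6 h, and 1 to 11 at 12 h. A putative Dof zinc finger protein (c67753_g1_i1) was at 2.05, 20.60 and 20.39 FPKM. Of 161 transcripts with a MYB domain, 20 were higher at 12 h (3.19% over all transcripts), as many as the highest count at another stage. Of 7 phloem proteins, 3 were 4-fold higher at 6 h, as at every other stage, among them phloem protein 2-A12 (c64135_g1_i2), a lectin of the phloem, at 0.75, 16.09 and 5.22 FPKM. Its difference at 6 h, 3.29, was below that of the other 5 stages (3.58 to 4.54).

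**Figure D2:**
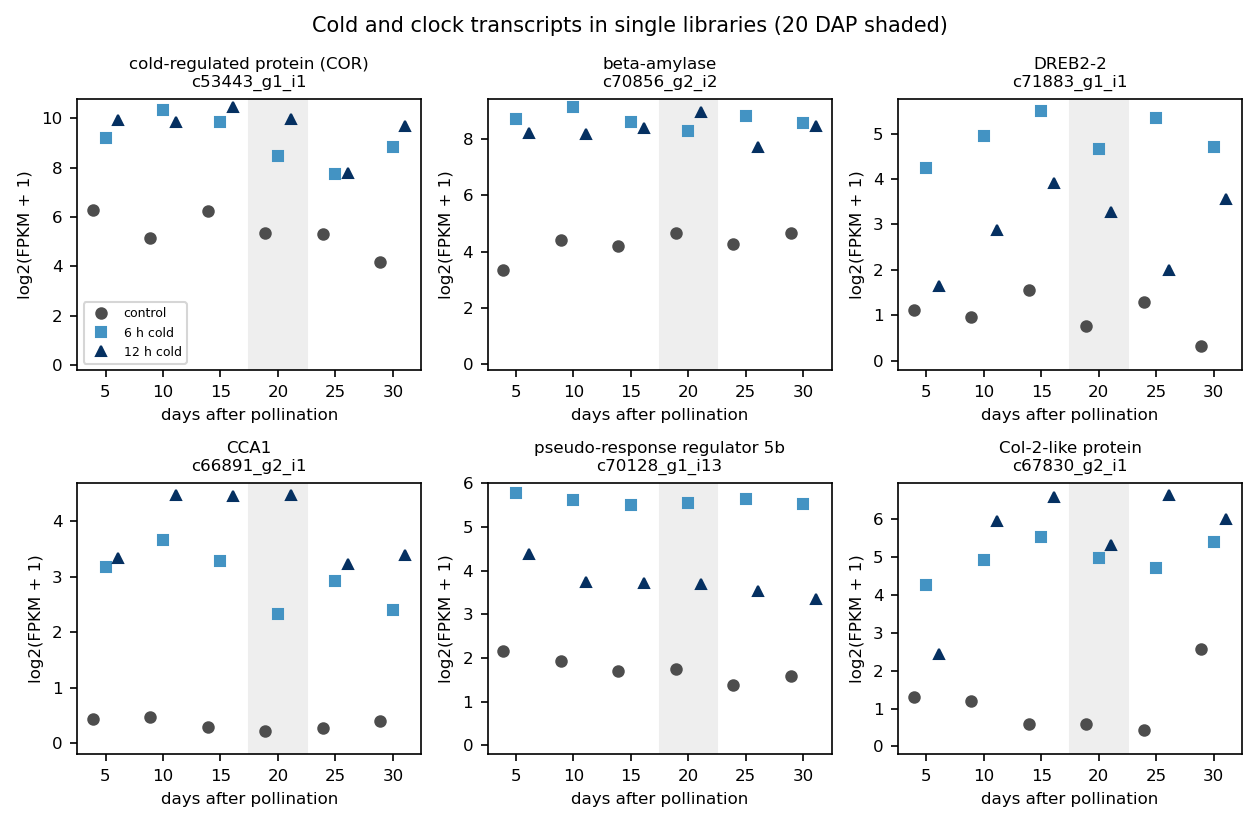
Level of 6 cold and clock transcripts, log2(FPKM + 1), in each library by stage (x axis, days after pollination; 20 DAP shaded), with 1 point for each library (control, cold for 6 h, cold for 12 h). At 20 DAP CCA1 lies at 4.01 FPKM at 6 h and 21.06 at 12 h, while pseudo-response regulator 5b and DREB2-2 are highest at 6 h.

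A set of fermentation genes was high in the 20 DAP 6 h library and low again at 12 h. Alcohol dehydrogenase 1 (c61598_g2_i2), which turns acetaldehyde into ethanol, was at 54.00 FPKM in control, 538.7 at 6 h and 24.33 at 12 h. Pyruvate decarboxylase-2 (c66375_g1_i2), the step before it, was at 115.0, 406.4 and 37.10 FPKM. Nonsymbiotic hemoglobin (c60518_g1_i1), which scavenges nitric oxide in low oxygen, was at 3.39, 47.12 and 0.98 FPKM. In each case 6 h stood far above both control and 12 h, and 12 h was below control. Alanine aminotransferase (c87063_g1_i1), which stores pyruvate as alanine, was at 2.52, 28.42 and 1.35 FPKM. Of 12 fermentation and hemoglobin transcripts, from 8 unigenes, 7 were 4-fold higher at 6 h than in control (2.34% over all transcripts) and none was lower. From 6 h to 12 h, 9 were 4-fold lower (2.06% over all). At 6 h no other stage had a 4-fold higher member. This list was chosen after its values were seen, so its counts describe the pattern and are no support for it.

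The same transcripts were high in 1 more library, 25 DAP 12 h. Alcohol dehydrogenase 1 (c61598_g2_i2) reached 827.1 FPKM there and 11.27 to 41.51 in the remaining libraries of the other stages. In all, 10 transcripts of 7 unigenes were at least 4-fold above all other 16 libraries in both 20 DAP 6 h and 25 DAP 12 h, and 58 at least 2-fold. They include ACC oxidase 1 (c65334_g1_i1), the last enzyme of ethylene synthesis, at 25.73 FPKM in the 20 DAP control, 839.5 at 6 h and 7.85 at 12 h, and at 515.9 in the 25 DAP 12 h library. They also include a rhodanese-like protein (c57413_g1_i2), a sulfur transferase fold, at 5.80, 65.46 and 1.33 FPKM at 20 DAP and 67.02 at 25 DAP 12 h. Of the 312 transcripts 4-fold higher at 20 DAP 6 h, 143 were also 4-fold higher at 25 DAP 12 h than in its own control. Over all 13342 transcripts, 502 were. Of the same 312, 126 were 4-fold higher at 6 h at each of the other 5 stages. The 143 can thus include transcripts higher in cold at every stage, and how many do was not counted. The fermentation pattern sat at 6 h of 20 DAP and at 12 h of 25 DAP, and not at 12 h of 20 DAP.

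Also high in both libraries were coproporphyrinogen III oxidase (c69527_g1_i1), a heme synthesis enzyme, at 21.93, 142.4 and 5.61 FPKM at 20 DAP and 74.43 at 25 DAP 12 h, and an aluminum-induced protein (c66628_g1_i1) at 16.01, 205.6 and 4.43 and at 384.4. Of 88 transcripts annotated to the Gene Ontology term response to hypoxia, which holds 6 of the 12 above, 16 were 4-fold higher and 3 lower at 6 h, 1 higher and 21 lower at 12 h, and 37 lower at 12 h than at 6 h. Over all transcripts the shares were 2.34% higher and 1.17% lower at 6 h, 3.19% and 2.07% at 12 h, and 2.06% lower in the step. At the other 5 stages at most 2 of the 88 were 4-fold higher at 6 h. This list, too, was chosen after its values were seen, so its counts are descriptive. limma called no transcript higher or lower in the 6 h change of 20 DAP against the other stages (0% each), with 820 at an unadjusted p under 0.05. When nothing differs, a share of about 0.05 of the 13342 transcripts is expected under that p, so the 820 are not calls. Without the 25 DAP 12 h library, an alternative chosen after seeing the data, it called 28 higher and 3 lower. Since that library was left out for holding the same transcripts high, these calls are given as a count and are no support for the pattern. What set these 2 libraries apart was not tested.

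The step from 6 h to 12 h gave 24 transcripts (0.180%) whose 20 DAP step was lower than that of the other stages by limma, and 4 (0.0300%) whose step was higher. In 23 of the 24 the 20 DAP 6 h library lay above the 6 h libraries of all other 5 stages, and in 16 the 20 DAP control lay above all other controls. The 6 h library also went into the calls, so the count of 23 partly follows from the selection and is descriptive. A protein with the DUF3774 domain (c63425_g1_i2), a family named for wound induction, was at 148.6 FPKM in the 20 DAP control, 226.6 at 6 h and 1.58 at 12 h. At the other 5 stages it was at 31.00 to 124.2 in control, 2.43 to 4.09 at 6 h and 1.04 to 8.51 at 12 h. Its step at 20 DAP was 6.26 below that of the other stages (SE 0.79, limma adjusted p = 0.0216).

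Further DUF3774 transcripts had the same order of levels: c20038_g2_i1 was at 89.13, 101.0 and 2.96 FPKM (step 4.64 below the other stages, limma adjusted p = 0.0216) and c87378_g1_i1 at 56.45, 108.7 and 0.22 (6.26 below, limma adjusted p = 0.0712). Of 11 transcripts with this domain, from 7 unigenes, 9 were 4-fold lower at 12 h than at 6 h at 20 DAP (2.06% over all transcripts). At another stage at most 2 were. The list was chosen after its values were seen, so these counts are descriptive and no support for the pattern. A sequence-specific DNA binding transcription factor (c67249_g4_i9) was at 14.57, 31.75 and 0.19 FPKM. A RING and CHY zinc finger protein (c101874_g1_i1), of a ubiquitin ligase class, was at 0.10, 9.21 and 0.37 FPKM and at most 0.63 in the other stages, so that it was high in 1 library of 18. The seed specific protein Bn15D17A (c70267_g4_i2) was at 42.28, 53.25 and 2.02 FPKM, and its step did not pass (limma adjusted p = 0.119). These 24 calls depend on the settings. A pseudocount of 0.1 and a fit to the 6 h and 12 h libraries alone each gave 0 calls (546 and 750 transcripts at an unadjusted limma p under 0.05), which ends every step call named here. With stages left out, limma made 0 such calls without 10, without 15 or without 30 DAP, 1 without 5 DAP, 58 without 25 DAP and, in the alternative chosen after seeing the data, 66 without the 25 DAP 12 h library.

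**Figure D3:**
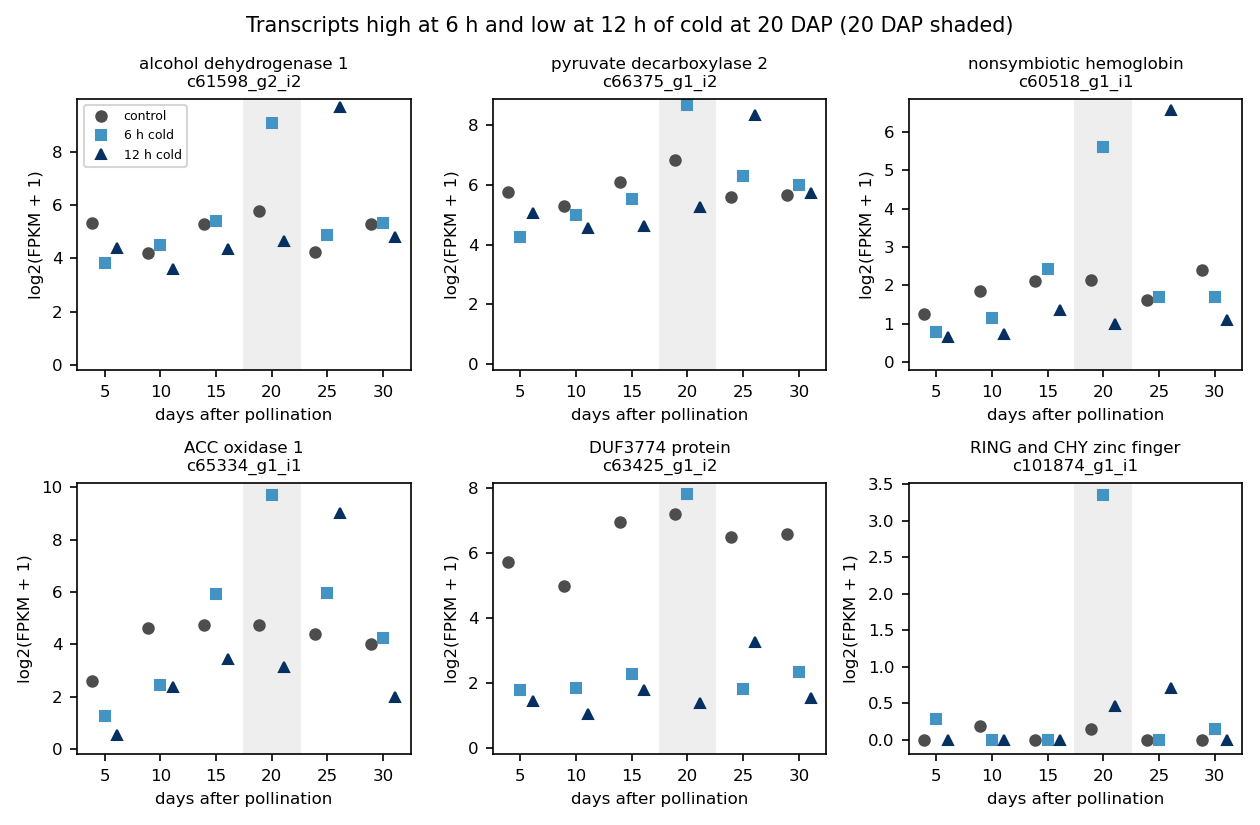
Level of 6 transcripts, log2(FPKM + 1), in each library by stage (x axis, days after pollination; 20 DAP shaded), with 1 point for each library (control, cold for 6 h, cold for 12 h). In the upper row and for ACC oxidase 1 the 20 DAP 6 h and 25 DAP 12 h libraries stand above the rest, and the DUF3774 transcript is at 226.6 FPKM at 20 DAP 6 h against at most 4.09 at 6 h elsewhere.

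Heat-shock genes were high in the 20 DAP control and lower in both cold libraries. Of 62 heat-shock factors and chaperones, 1 was 4-fold higher and 14 lower at 6 h, and 1 higher and 27 lower at 12 h. Over all transcripts 1.17% were lower at 6 h and 2.07% at 12 h. At the other stages 0 to 19 of the 62 were lower at 6 h and 0 to 20 at 12 h. Their median difference was -0.22 at 6 h and -1.74 at 12 h, against 0.00 and -0.04 over all transcripts. HSP70 (c68640_g7_i1), a general chaperone, was at 84.54 FPKM in control, 8.28 at 6 h and 1.75 at 12 h. HSFA2 (c46150_g1_i1), a factor that sustains the heat response, was at 22.78, 1.74 and 0.28 FPKM. MBF1c (c101017_g1_i1), a heat-tolerance coactivator, was at 50.46, 0.80 and 0.49 FPKM. The order control, 6 h, 12 h held for all 3.

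The 20 DAP control itself stood high among controls, except for HSFA2, which was at 29.54 FPKM in the 15 DAP control. HSP70 (c68640_g7_i1) was at 43.01 FPKM in the 15 DAP control and 3.81 to 24.77 in the other 4 controls, below the 84.54 of 20 DAP. MBF1c (c101017_g1_i1) was likewise at 3.45 to 24.85 FPKM in the other 5 controls. The summed level of the 62 transcripts was 880 FPKM in the 20 DAP control, 804 in that of 15 DAP and 236 to 472 in the remaining controls. It was lower in cold at 15 DAP as well (325 at 6 h and 250 at 12 h), as at 20 DAP (417 and 218). Neither the 6 h nor the 12 h change of HSP70, HSFA2 or MBF1c passed limma's test against the other stages (adjusted p from 0.851 to 1). Of 67 transcripts for ethylene synthesis and ERF factors, 4 were higher and 1 lower at 6 h, and none higher and 7 lower at 12 h. Over all transcripts the shares were 2.34% and 1.17% at 6 h and 3.19% and 2.07% at 12 h. The counts lay within those of the other stages (0 to 6 higher and 0 to 16 lower at 6 h, 0 to 6 and 1 to 24 at 12 h). The ERF2 transcription factor (c151349_g1_i1) was at 8.08, 3.43 and 0.40 FPKM.

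Cellulose synthases of the secondary cell wall, the thick wall of fibres and xylem, were lower in both cold libraries of 20 DAP. Of 77 transcripts for cellulose, arabinogalactan proteins and extensins, 10 were 4-fold lower at 6 h (1.17% over all transcripts) and 2 at 12 h (2.07% over all), so that the 12 h count is near the background, and none was higher. Of 30 lignin and phenylpropanoid transcripts none was 4-fold lower at either time, with medians of -0.13 and -0.20. Cellulose synthase 8.2 (c72428_g3_i1), a subunit of the secondary wall complex, was at 91.63 FPKM in control, 18.48 at 6 h and 19.06 at 12 h. Its partner cellulose synthase 7.1 (c72428_g2_i1) was at 45.32, 10.30 and 9.82 FPKM, and MYB103 (c67210_g1_i3), a regulator of secondary wall formation, at 6.08, 1.29 and 0.99. Both cold libraries lay below control for these 3 genes. The 20 DAP control was at the level of the 25 and 30 DAP controls (96.44 and 80.72 FPKM for cellulose synthase 8.2) while the cold libraries lay nearer those of 15 DAP (6.72 to 17.07). At the other 5 stages the 6 h difference of cellulose synthase 8.2 ranged from -1.64 to 0.40, against -2.25 at 20 DAP, and the limma test of this gap gave an adjusted p of 0.803. Laccase-4 (c69291_g2_i1), a lignin-polymerising oxidase, was at 20.88, 6.10 and 7.63 FPKM, and a beta-tubulin (c61298_g1_i1) at 49.54, 11.80 and 17.43.

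**Figure D4:**
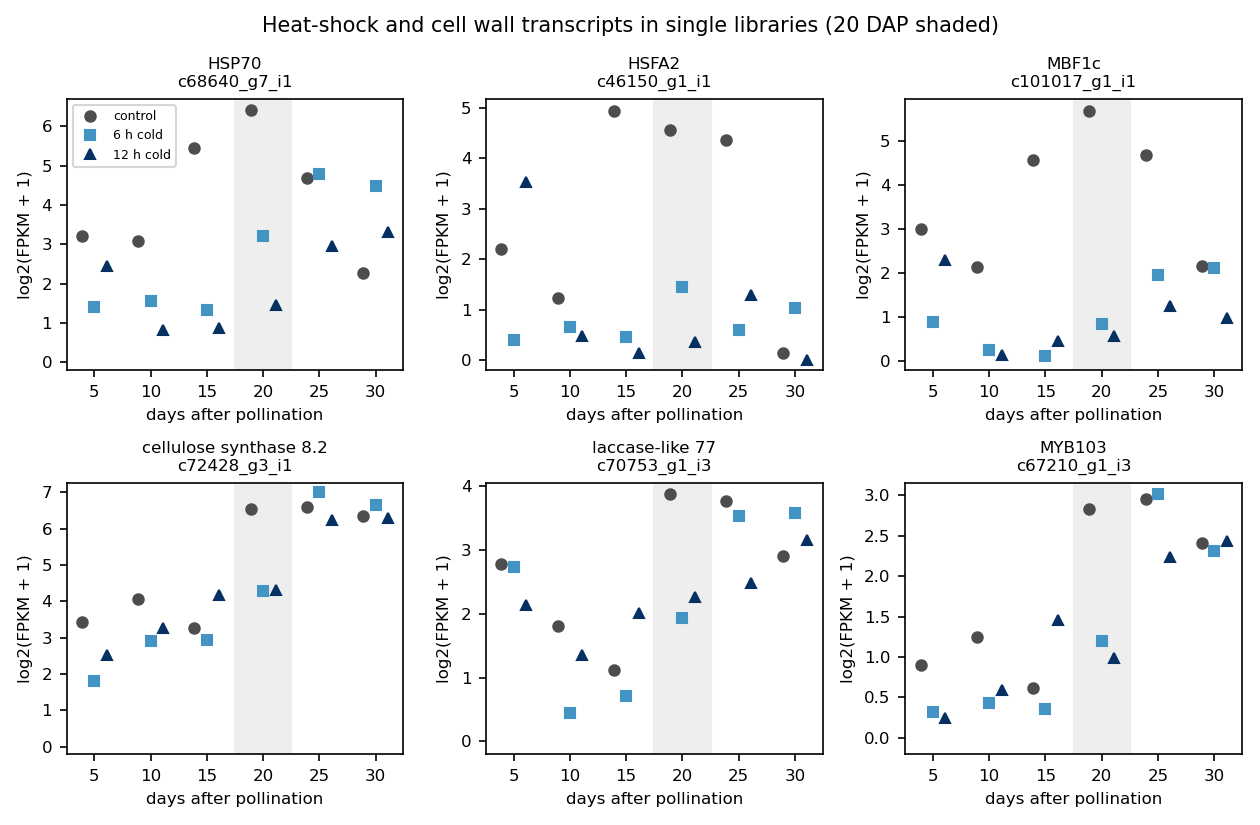
Level of 3 heat-shock transcripts (upper row) and 3 cell wall transcripts (lower row), log2(FPKM + 1), in each library by stage (x axis, days after pollination; 20 DAP shaded), with 1 point for each library (control, cold for 6 h, cold for 12 h). At 20 DAP the control is the highest of the 3 libraries in each panel, at 84.54 FPKM for HSP70 and 91.63 for cellulose synthase 8.2.

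Transcripts more abundant in controls of 10 and 15 DAP were mostly higher in cold than in control at 20 DAP, and those more abundant at 25 and 30 DAP mostly lower. An early-stage set of 199 transcripts was taken as those at least 4-fold higher in both the 10 and 15 DAP controls than in both the 25 and 30 DAP controls, and a late-stage set of 339 as the reverse, without use of any 20 DAP or cold library. The median level of the early-stage set, as log2(FPKM + 1), was 1.55 in the 20 DAP control, 2.99 at 6 h and 3.25 at 12 h. In controls of other stages it was 2.05 at 5 DAP, 4.01 at 10 DAP, 4.35 at 15 DAP, 1.06 at 25 DAP and 0.00 at 30 DAP. The 20 DAP control thus lay between those of 25 and 5 DAP, and both cold libraries lay above it and below the 10 and 15 DAP controls.

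At 6 h, 194 of the 199 early-stage transcripts were above the 20 DAP control by some amount and 11 (5.53%) were 4-fold higher. At 12 h, 174 were above it and 66 (33.2%) were 4-fold higher, with none 4-fold lower at either time. Their median difference was 1.26 at 6 h and 1.39 at 12 h, whereas at the other 5 stages it was -0.59 to 0.00 at 6 h and -0.74 to 0.26 at 12 h. The late-stage set differed in the other direction: its median level was 3.30 in the 20 DAP control, 2.48 at 6 h and 2.81 at 12 h, with 318 of 339 below control at 6 h and 272 at 12 h. Of the 339, 19 (5.60%) were 4-fold lower at 6 h and 8 (2.36%) at 12 h. Over all transcripts 1.17% and 2.07% were, so the 12 h count is near the background. Most of the set was below control at 10 DAP too, 262 at 6 h and 251 at 12 h. Cellulose synthase 8.2 is a member of the late-stage set. Since controls of 10, 15, 25 and 30 DAP chose the sets, differences from those same controls are tilted by the choice at these stages, but not at 20 or 5 DAP. With 1 library per condition, the developmental age of the siliques in each library and the cold cannot be told apart.

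**Figure D5:**
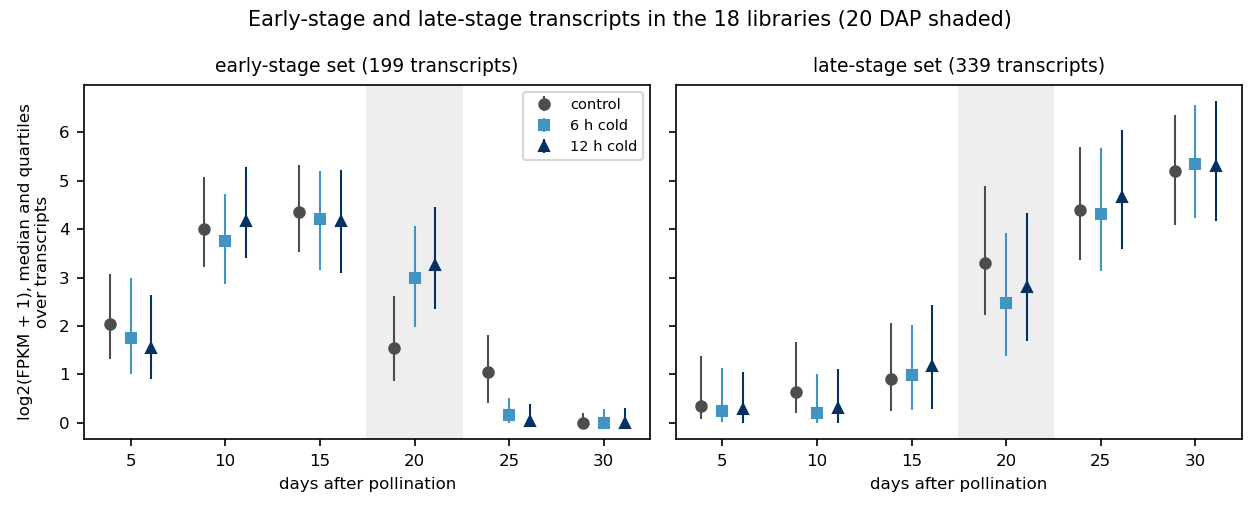
Median level of the 199 early-stage transcripts (left) and the 339 late-stage transcripts (right), log2(FPKM + 1), in each of the 18 libraries by stage (x axis, days after pollination; 20 DAP shaded); bars span the lower to upper quartile over transcripts. At 20 DAP the early-stage median is 1.55 in control, 2.99 at 6 h and 3.25 at 12 h, and the late-stage median 3.30, 2.48 and 2.81.

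The 12 h change of 20 DAP differed from that of the other stages for 65 transcripts on the higher side (0.487%) and 3 on the lower side (0.0225%) by limma. Of the 65, 48 belong to the early-stage set, which holds 199 of the 13342 transcripts. The mean of both cold changes gave 23 higher (0.172%), 21 of them early-stage, and 2 lower (0.0150%). The set was chosen after its values were seen, and the controls of other stages that chose it also went into the calls. The counts of 48 and 21 are therefore descriptive. A gibberellin-regulated protein (c16507_g1_i1) was at 0.10 FPKM in the 20 DAP control, 1.48 at 6 h and 17.03 at 12 h, with 6.78 to 10.60 in the controls of 5 to 15 DAP and 0 in all libraries of 25 and 30 DAP. Its 12 h change was 4.05 above the other stages (SE 0.33, limma adjusted p = 0.000876).

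A glycoside hydrolase of family 28 (c129124_g1_i1), the pectin-cutting polygalacturonase family, was at 0.58, 5.52 and 66.54 FPKM, and its 12 h value was above every other library of the series (at most 28.28). Its 12 h change was 5.56 above the other stages (SE 0.63, limma adjusted p = 0.00425). A family 10 glycosyl hydrolase (c69531_g1_i1) was at 1.65, 9.52 and 26.73 FPKM, the cysteine-rich peptide LCR37 (c58684_g1_i1) at 1.47, 9.23 and 49.49, and expansin B4 (c101628_g1_i1), a wall-loosening protein, at 0.06, 1.05 and 8.43. The 12 h change of all 3 was higher than at the other stages (limma adjusted p = 0.00425, 0.00459 and 0.00724). AGL80 (c8103_g1_i1), a MADS-box factor of the central cell in Arabidopsis, was at 0.16, 0.32 and 5.51 FPKM, above the other libraries of the series (at most 2.26), and its 12 h change was 2.56 higher (SE 0.31, limma adjusted p = 0.00568). In 33 of the 65 transcripts the 20 DAP 12 h library lay above all other 12 h libraries, and in 63 the 20 DAP control lay within the range of other controls. Both libraries also went into the calls, so these counts are descriptive.

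These calls rest on the spread of the other stages, whose 10, 15, 25 and 30 DAP controls also chose the early-stage set. The median early-stage transcript was at 0.00 in all 3 libraries of 30 DAP. limma made between 10 and 56 higher calls at 12 h when 1 stage was left out, 10 without 30 DAP, 17 without 5 DAP and 22 without 15 DAP, and 0 when 20 DAP was compared with 5 to 15 DAP alone or with 25 and 30 DAP alone. With the control and 12 h libraries alone limma made 0 calls at 12 h (526 at an unadjusted p under 0.05), and with a pseudocount of 0.1 it made 22 higher calls. Among transcripts outside both sets, chosen after seeing the data, 3 were called higher and 1 lower at 12 h. For the mean of both changes, 0 higher calls were left without 15 or without 30 DAP, and 47 were made without 25 DAP. One lower call rests on a single library: a transcript antisense to ribosomal RNA protein (c56652_g1_i1) was at 3.31 FPKM in the 20 DAP control and is listed at 0 in the other 17 libraries.

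A pair of wound-related transcripts stood at unusual levels at 20 DAP, and both were singled out after their values were seen. Lipoxygenase 2 (c72135_g1_i3), which starts jasmonate synthesis, was at 0.84 FPKM in the 20 DAP control, 2.15 at 6 h and 3.90 at 12 h, while the controls of the other 5 stages were at 12.37 to 310.7. A Kunitz-type cysteine protease inhibitor (c58410_g1_i1), a wound-induced defence protein class, was at 0.60, 15.87 and 13.18 FPKM, against 27.38 to 786.7 in the other controls. Lipoxygenase 2 was thus below every control of another stage in all 3 libraries of 20 DAP, and so was the inhibitor.

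None of 12 seed coat and endosperm transcripts, 13 embryo regulators or 34 storage protein and oleosin transcripts was 4-fold higher or lower at 6 h or at 12 h. Over all transcripts 2.34% were higher and 1.17% lower at 6 h, and 3.19% and 2.07% at 12 h, so counts of 0 in lists of this size are near the background. FERTILIZATION-INDEPENDENT ENDOSPERM (c67588_g2_i1), a polycomb protein that restrains endosperm, was at 67.51, 47.25 and 59.26 FPKM, and the seed coat laccase TT10a (c62649_g1_i1) at 111.5, 61.12 and 69.26. The AGL62-like factor (c70411_g1_i6), which in Arabidopsis delays endosperm cellularisation, was at 0.15, 1.38 and 1.73 FPKM and is an early-stage transcript. Of 47 transcripts named for pollen, anther or flower, 2 were higher at 12 h, near the 3.19% over all transcripts. A self-incompatibility S1 family protein (c55630_g1_i1) was at 10.48, 32.29 and 174.8 FPKM, another early-stage transcript. The summed level of chloroplast- and mitochondrion-encoded transcripts was 100 FPKM in control, 114 at 6 h and 42.3 at 12 h, and that of ribosomal protein transcripts 24.5, 27.5 and 30.4; their part in the differences was not tested.

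Actin-7, a cytoskeletal gene often used as a reference, differed between these libraries. The actin-7-like transcript c51347_g2_i2 was at 13.03 FPKM in control, 2.67 at 6 h and 0.78 at 12 h, a difference of -1.93 at 6 h and -2.98 at 12 h. At the other 5 stages these differences ranged from -1.32 to 0.37 and from -1.03 to 0.74, so 20 DAP lay below them at both times. Both actin-7-like transcripts were 4-fold lower at 12 h, and the 12 h change of c51347_g2_i2 did not pass limma's test against the other stages (adjusted p = 0.133).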

How the data were processed

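The authors filtered the reads, assembled those of all libraries with Trinity, aligned them with Bowtie2, quantified transcripts with RSEM and applied TMM scaling. The deposited table holds FPKM for transcripts that their differential expression step called. It has no counts, so no counting interval is given. By the study's read totals, not analysed here, the 20 DAP 12 h library kept a smaller share of reads in filtering and had fewer mapped reads than the other 20 DAP libraries. Reads shared by isoforms and homoeologues make near-identical transcripts uncertain. Names are best hits of the deposited annotation.

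Here log2(FPKM + 1) was compared without a filter at 4-fold. limma 3.58.1 (R 4.3.3) was fitted to all 18 libraries with stage, cold duration and the 20 DAP interaction as terms, and p-values were adjusted over 13342 transcripts (Benjamini-Hochberg, threshold 0.05); the code was tested on simulated data. Named transcripts were the 10 largest and 10 smallest differences past 4-fold with at least 5 FPKM, the leading limma calls, up to 4 members of each of 76 gene lists and the study's qPCR genes. Members, lists and tests were chosen with earlier results of these data known. The low-oxygen and DUF3774 lists, the stage sets and the transcripts of pyruvate decarboxylase, alanine aminotransferase, DUF3774, GIGANTEA, c56652_g1_i1 and actin-7-like c51347_g2_i1 were chosen after their values were seen. The pod wall list matched no transcript. Alternatives covered pseudocount, low values, scaling, unigenes, variance trend and the stages compared.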

Additional observations from a re-analysis of the deposited data

Results flagged for a closer look

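For the transcripts below, limma found a 20 DAP change that differed from that of the other 5 stages (adjusted p under 0.05, Benjamini-Hochberg), given as the log2 difference from the mean change of those stages. For the 12 h change it was 4.05 for a gibberellin-regulated protein (c16507_g1_i1), 3.75 for a family 10 glycosyl hydrolase (c69531_g1_i1), 5.56 for a family 28 glycoside hydrolase (c129124_g1_i1) and 4.41 for LCR37 (c58684_g1_i1). It was 2.56 for AGL80 (c8103_g1_i1), 3.57 for beta-xylosidase 3 (c39639_g1_i1), 3.01 for a SOUL heme-binding protein (c53558_g1_i3) and 2.53 for a papain family peptidase (c60017_g1_i1). It was 3.36 for expansin B4 (c101628_g1_i1), 3.09 for xyloglucan endotransglucosylase/hydrolase 2 (c65353_g1_i1) and -2.11 for the transcript antisense to ribosomal RNA protein (c56652_g1_i1).

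For the mean of the 6 h and 12 h changes, the difference was 2.68 for c16507_g1_i1, 3.05 for c69531_g1_i1, 3.41 for c58684_g1_i1, 4.01 for c129124_g1_i1 and 2.09 for c60017_g1_i1. It was 2.48 for c65353_g1_i1, 2.33 for both c53558_g1_i3 and c101628_g1_i1, 2.63 for c39639_g1_i1, 2.02 for a further family 28 hydrolase (c70581_g1_i3) and -2.11 for c56652_g1_i1.

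For the step from 6 h to 12 h, the difference was 2.74 for c16507_g1_i1 and 2.25 for AGL80. It was -2.95 for the RING and CHY zinc finger protein (c101874_g1_i1), -4.65 and -3.84 for the DNA binding transcription factors c67249_g4_i9 and c44653_g1_i2, -2.12 for an aquaporin (c66484_g2_i1), -2.35 for LCR44 (c77579_g1_i1) and -2.62 for a zinc finger protein (c48126_g2_i1).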

How the results depend on the processing

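No paired analysis was possible because no replicate number recurs within a stage and condition, each having 1 library; control and cold libraries were matched by stage, a term in every limma fit. With a pseudocount of 0.1, 937 transcripts were 4-fold higher and 543 lower at 6 h, 991 and 880 at 12 h, and 304 and 698 from 6 h to 12 h; at 2-fold these were 1417 and 1036, 1277 and 1403, and 609 and 1038. limma calls are given as higher and lower. For the 6 h change they were 0 and 1 with the pseudocount of 0.1, 1 and 0 with median ratio scaling, 2 and 1 with a variance trend, and 0 to 16 and 0 to 1 with a stage left out, the 16 without 25 DAP. For the 12 h change they were 22 and 1 with the pseudocount, and 10 to 56 and 1 to 4 with a stage left out. For the mean change they were 9 and 1 with the pseudocount, 18 and 0 among transcripts averaging at least 1 FPKM, 28 and 1 with median ratio scaling, 16 and 1 for unigenes, and 0 to 47 and 0 to 4 with a stage left out. For the step they were 0 and 0 with the pseudocount, 2 and 28 with a variance trend, and 0 to 6 and 0 to 58 with a stage left out. Against 5, 10 and 15 DAP alone the 4 tests gave 0 calls but for 1 lower step, and against 25 and 30 DAP alone 0; with the libraries of the compared durations alone the 6 h, 12 h and step tests gave 0. In these settings with 0 calls, 526 to 1282 transcripts had an unadjusted p under 0.05. A share of about 0.05 of the 13342 transcripts is expected there when nothing differs, so such counts are not read as remaining signal. Of the alternatives chosen after seeing the data, leaving out the 25 DAP 12 h library gave 28 and 3 (6 h), 64 and 5 (12 h), 38 and 5 (mean) and 5 and 66 (step), and leaving out both stage sets gave 0 and 0, 3 and 1, 0 and 1, and 1 and 20. Among single transcripts under these alternatives, 170 limma values were no longer called and 214 kept their side; 21 fold values moved and 159 did not. No value reversed. In simulated data for 13342 transcripts, limma recovered 14% of 4-fold and 36% of 16-fold changes at 6 h, and 12% and 28% at 12 h. The causes were not tested.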
